A study of Mus musculus with 6 samples.

Results

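The fibroblasts (FBs) described here are Pdgfra-positive cell barcodes of PBS-treated mouse lung that carried mRNA of Kcnk2, Lrat and Chrdl1 and little mRNA of a small set of lipofibroblast (LipoFB) genes. A barcode was taken when it had at least 2000 unique molecular identifiers (UMIs, each standing for 1 captured mRNA), no UMI of Ptprc, Pecam1 or Epcam (genes of immune, endothelial and epithelial cells), at least 1 UMI of Pdgfra, at least 3 UMIs of Kcnk2, Lrat and Chrdl1 together, and fewer than 2 UMIs of Colq, Slc7a10, Igfbp3 and Fabp3 together. In the 2 PBS libraries 870 of 5617 Pdgfra-positive barcodes met this rule, out of 33286 barcodes in the 6 libraries of the series. They were 98 of 765 Pdgfra-positive barcodes after a single dose of PBS and 772 of 4852 after repetitive PBS, and they are called members below. The other Pdgfra-positive barcodes of the same library, 667 and 4080, were the comparison.

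The study sorted GFP+ cells from lungs of Pdgfra-GFP mice (PDGFRa-EGFP in the labels of the repetitive libraries), in which the Pdgfra locus drives green fluorescent protein, and profiled them by droplet single-cell RNA sequencing. The single-dose mice received 50 µl of PBS or bleomycin into the oropharynx and were killed on day 14, and the repetitive mice received 1 dose a week for 3 weeks and were killed 2 weeks after the last. Bleomycin was given as 1, 1 and 0.5 U/kg in the repetitive arm, and for the single dose the labels state both 2 and 4 U/kg. Both organoid libraries held alveolar type 2 cells from SpcCreER tomato+ donors grown for 2 weeks with Pdgfra-GFP FBs from PBS- or bleomycin-treated lungs. The lung donors were male mice of 10 to 14 weeks per the study's methods. Each lung library pooled 3 mice and each condition had 1 library, so no test between conditions was possible, and none was made between groups of cells. All intervals given are exact 95% intervals of counting error alone, Poisson for levels and ratios and Clopper-Pearson for shares, a count of 0 is given the limit of 3 counts, and the variation between mice is unknown. The single-dose PBS library held 7201081 UMIs in 1060 barcodes and the repetitive PBS library 64697147 UMIs in 6139 barcodes. No barcode sequence was shared between the PBS libraries.

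Lrat, lecithin retinol acyltransferase, esterifies retinol for storage and is best known from the vitamin A storing stellate cells of liver. Kcnk2 encodes TREK-1, a tandem-pore potassium channel opened by stretch and lipids, and Chrdl1 encodes a secreted antagonist of bone morphogenetic proteins (BMPs). LipoFBs are the lipid droplet-bearing interstitial FBs of the alveolus, and the MatrixFBs of the adventitia around airways and vessels express Col14a1, Ly6a and Serpinf1.

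The label genes were first read in the members themselves. These values describe the rule, because Kcnk2, Lrat and Chrdl1 chose the barcodes. In the single-dose library Kcnk2 was present in 63.3% of members, Lrat in 83.7% and Chrdl1 in 64.3%, and in the repetitive library the shares were 64.5%, 77.6% and 77.5%. All 3 genes together were present in 36.7% of members after a single dose and in 39.8% after repetitive dosing, so most members carried 1 or 2 of them. The 3 genes summed to a median of 5.5 UMIs (3 to 21) and 7 UMIs (3 to 45) per member. In immune barcodes of the same libraries (a UMI of Ptprc, none of Pdgfra or Col1a1), Kcnk2, Lrat and Chrdl1 were present in at most 2 of 21 and 9 of 181 barcodes. Immune barcodes that held Pdgfra or Col1a1, and so some FB RNA, were left out. Shares in immune barcodes, here and below, are therefore a low estimate of free RNA. The immune barcodes had median depths of 4309 and 4052 UMIs, against 8224.5 and 11962 UMIs in members. The other Pdgfra-positive barcodes had medians of 7023 and 10387 UMIs, and the mitochondrial share was alike, 2.73% against 2.51% and 3.08% against 2.98%.

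The edges of the rule were populated. After a single dose 23 members had exactly 3 marker UMIs and 37 barcodes stood just outside with 2, and after repetitive dosing the numbers were 141 and 166. Another 33 and 167 barcodes had enough marker UMIs but exactly 2 UMIs of the LipoFB genes. Just inside the marker limit Lpl stood at 142.8 and 185 CPM (counts of a gene scaled to the same UMI total in each group) in the single-dose and repetitive libraries, and just outside it at 82.4 and 143.5 CPM. C4b stood at 484 and 577 CPM inside and at 344 and 605 CPM outside.

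Kcnk2, Lrat and Chrdl1 were not exclusive to the members. Of all Pdgfra-positive barcodes with at least 3 UMIs of these genes, 67.0% (61.3 to 72.3) in the single-dose library and 72.3% (70.6 to 73.9) in the repetitive library also carried at least 2 UMIs of the LipoFB genes. The members are therefore the LipoFB gene-poor minority of a wider marker-bearing set. To read each gene in barcodes that it had not helped to choose, barcodes were chosen by at least 2 UMIs of the other 2 genes with the rest of the rule kept. Kcnk2 then stood at 131 CPM in 114 chosen single-dose barcodes against 50.4 CPM in the rest, a log2 ratio of 1.36 (1.05 to 1.70), and at 114 against 54.7 CPM in the repetitive library, 1.05 (0.96 to 1.16). Lrat gave 0.93 (0.74 to 1.12) and 0.63 (0.58 to 0.70), and Chrdl1 0.53 (0.21 to 0.85) and 0.36 (0.28 to 0.45). All 6 ratios were positive, and Chrdl1 had the lowest in both libraries.

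Cdkn1c is the label gene that the rule did not use. It encodes p57, an imprinted inhibitor of cyclin-dependent kinases. Cdkn1c was present in 60.2% of members and 35.8% of the others in the single-dose library, and in 64.25% and 46% in the repetitive library. When every barcode was thinned to 2000 UMIs the shares were 27.55% and 12.4%, and 19.2% and 12.9%. In the immune barcodes of the same libraries, shallower than members, it was present in 0 of 21, for which the limit of 3 counts is 14.3%, and in 1.105% of 181. Its level was 129 CPM (105 to 157) in single-dose members and 78.8 CPM (70.9 to 87.2) in the others, a log2 ratio of 0.70. In the repetitive library it was 112 CPM (105 to 119) against 79.6 CPM (76.99 to 82.3), a log2 ratio of 0.49. Neither ratio reached 2-fold. Against the other barcodes that also had few LipoFB-gene UMIs the ratio was 0.59 in the single-dose library and -0.03 in the repetitive library.

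The other Pdgfra-positive barcodes were divided by genes that the rule or the MatrixFB definition names. LipoFB-gene barcodes (at least 2 UMIs of Colq, Slc7a10, Igfbp3 and Fabp3) numbered 199 with enough marker UMIs and 321 without in the single-dose library, and 2011 and 1381 in the repetitive library. Of the barcodes with few LipoFB-gene UMIs and few marker UMIs, 55 and 388 carried at least 3 UMIs of Col14a1, Ly6a and Serpinf1 and are called matrix-gene barcodes, and 92 and 300 remained. The comparison group was thus mostly LipoFB-gene barcodes, and a difference from it holds in part what the rule removed. In single-dose PBS Cdkn1c in members lay above all 4 of these sets, which ranged from 65.6 to 86.8 CPM. The intervals of the matrix-gene barcodes and of the remaining barcodes (the latter to 114 CPM) overlapped that of members. In repetitive PBS Cdkn1c in members lay above the LipoFB-gene barcodes (73.5 and 74.6 CPM) and beside the matrix-gene (118 CPM) and remaining barcodes (109.8 CPM).

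Markers of other cell types were read next. The smooth muscle gene Myh11, the mesothelial genes Wt1, Msln and Upk3b and the proliferation genes Mki67 and Top2a had 0 UMIs in single-dose members, for which the limit of 3 counts is 3.83 CPM each. In repetitive members Mki67 stood at 1.96 CPM (1.18 to 3.06) against 0.0451 CPM in the others and Top2a at 3.51 CPM (2.43 to 4.90) against 0.226 CPM, found in 0.518% and 0.648% of members. Mesothelial markers summed to 23.0 CPM in single-dose members and 45.8 CPM in the others, and 20.6 and 56.35 CPM in the repetitive library, with 6 of 8 and 3 of 8 at 0 in members. Mural markers summed to 47.2 against 37.0 CPM and 45.8 against 37.1 CPM, mostly Pdgfrb, which FBs also express. Epithelial RNA was high in the whole single-dose library, with Scgb1a1 of club cells at 709.6 CPM in members and 692 CPM in the others. In the repetitive library Sftpc of alveolar type 2 cells stood at 13.2 against 86.6 CPM. Endothelial markers summed to 26.8 against 12.8 CPM and 11.35 against 11.3 CPM, and cycling markers to 117 against 143 CPM and 99.4 against 95.7 CPM, mostly Stmn1. Erythrocyte markers reached at most 7.66 CPM.

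Immune RNA differed in the single-dose library. The 12 immune markers summed to 315 CPM in members and 149 CPM in the others, with Lyz2 at 217 and 68.7 CPM, against 32.6 and 25.9 CPM in the repetitive library. Without Cd14, 2 single-dose members held 117 and 80 UMIs of the other 11 markers, and no other member held more than 3. Below 20 such UMIs per barcode the sums were 43.2 and 53.0 CPM. No doublet caller was run, and the part of doublets or free RNA in these values was not tested.

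Across the transcriptome 4963 genes outside the rule reached 20 CPM in the higher group of both PBS libraries. The log2 ratio of members over others was taken on summed CPM plus 1, and a gene was called when it was at least 2-fold different in the same direction in both libraries. By this rule of size, with no test, 35 genes (0.705% of those compared) stood higher in members and 27 (0.544%) lower, 62 (1.25%) in all. In single libraries the counts were 77 (1.55%) higher and 77 (1.55%) lower after a single dose, and 47 (0.947%) higher and 39 (0.786%) lower after repetitive dosing. Of the 77 genes higher in the single-dose library, 70 had a positive ratio in the repetitive library, against 41.5% of all genes, and of the 47 higher in the repetitive library 44 had a positive ratio after a single dose, against 45.8% of all genes. The same LipoFB genes were kept out of members in both libraries. With all barcodes that had a UMI of the 11 immune markers left out of both groups, an alternative chosen after seeing the data, 33 genes were higher and 28 lower, and 29 and 25 of these were among the 35 and 27.

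**Figure D1:**
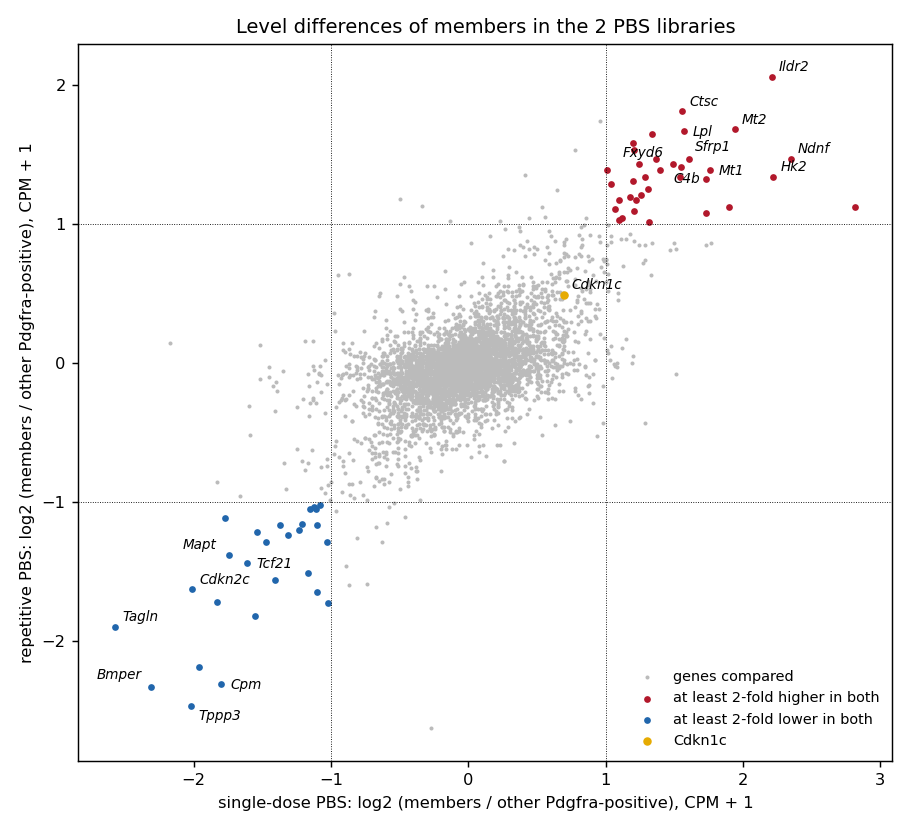
Log2 ratio of members over the other Pdgfra-positive barcodes (summed CPM plus 1) in the single-dose PBS library on the x axis and in the repetitive PBS library on the y axis. Each point is 1 of 4963 genes outside the rule, dotted lines mark 2-fold, and the 35 genes higher and 27 lower in both libraries are coloured, with Cdkn1c at 0.70 and 0.49.

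Among the genes with the highest ratios were a membrane protein and enzymes of lipid and sugar use. Ildr2, an immunoglobulin-like membrane protein, stood at 29.35 CPM (18.6 to 44.04) in single-dose members and 5.56 CPM (3.635 to 8.15) in the others, and at 52.1 CPM (47.6 to 56.8) and 11.7 CPM (10.7 to 12.7) in the repetitive library, log2 ratios of 2.21 and 2.06. A UMI of Ildr2 was found in 16.3% and 29.15% of members, and most of them lacked one. No immune barcode of the 21 and 181 held one. Lpl, lipoprotein lipase, which frees fatty acids from circulating triglyceride, stood at 186 CPM (157 to 219) against 62.1 CPM (55.1 to 69.6), and at 217 CPM (208 to 226) against 67.3 CPM (64.9 to 69.8). It was found in 57.1% of members and 22.6% of the others in the single-dose library and in 68.5% and 25.6% in the repetitive library, against 19.05% of 21 and 8.84% of 181 immune barcodes. Hk2, hexokinase 2 of glycolysis, had log2 ratios of 2.22 and 1.34.

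Secreted regulators were also among the genes higher in members. Sfrp1, a secreted Wnt antagonist, stood at 108.5 CPM in single-dose members against 34.9 CPM in the others, and at 116 against 41.03 CPM in the repetitive library. Gdf10, a ligand of the transforming growth factor superfamily, stood at 91.9 against 37.02 CPM and 67.97 against 26.25 CPM. Ndnf, a secreted neurotrophic factor, had log2 ratios of 2.35 and 1.47, the first on 16 UMIs in members. Fxyd6, a regulator of the sodium pump, had 1.49 and 1.43, and Ctsc, the lysosomal protease cathepsin C, 1.56 and 1.81. Ace, angiotensin converting enzyme, had 1.73 and 1.32, Adcy7, an adenylyl cyclase, 1.37 and 1.47, and Gpnmb, a lysosomal and membrane glycoprotein, 1.34 and 1.65. Gabra3, a subunit of the GABA-A receptor, had 1.54 and 1.34. Gabra3, Ace and Gdf10 changed sign in the repetitive library when LipoFB-gene barcodes were left out of the comparison, to -0.35, -0.47 and -0.08, and in the single-dose library their ratios were then 0.41, 0.32 and -0.05. The other called genes, with ratios from 1.01 to 2.82, included C2, Ccl7, Clec11a, Col12a1, Cpxm1, Cxcl1, Ifi203, Itgbl1, Ly6e, Man2a1, Mmp3, Mpp6, Pdgfrl, Pdpn, Plac8, Scd1 and Slco2b1, beside Nr4a2.

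C4b and Lbp are genes of innate defence. C4b, a complement component, stood at 569 CPM (518 to 624.5) in single-dose members and 194 CPM (182 to 207) in the others, and at 731 CPM (714 to 748) and 274 CPM (269 to 279) in the repetitive library. It was found in 83.7% and 89.25% of members, against 14.29% of 21 and 3.315% of 181 immune barcodes. Lbp, lipopolysaccharide binding protein, had log2 ratios of 1.40 and 1.39.

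Mt1 and Mt2, metallothioneins that bind zinc and copper, were both among the genes called higher, and Mt1 had the highest level of the 35 in members of both libraries. Mt2 stood at 1029 CPM (959 to 1102) in single-dose members and 267.5 CPM (253 to 283) in the others, and at 451 CPM (437.5 to 464) and 140.2 CPM (137 to 144) in the repetitive library. Mt1 stood at 1842 against 541.5 CPM and 2100 against 802 CPM. The log2 ratios were 1.94 and 1.68 for Mt2 and 1.76 and 1.39 for Mt1. The matrix-gene barcodes came nearer to the members, with Mt2 at 764 and 341 CPM and Mt1 at 1458 and 1642 CPM. Mt2 was present in 67.35% and 58.4% of members, so its level came from a part of them, and in 19.05% and 8.29% of immune barcodes. The genes are neighbours on the forward strand of mouse chromosome 8, with starts 6471 bases apart in GRCm38.p6, and as members of a multigene family they could share some reads. Because both stood higher in members than in all the others together, the 250 bases before each RefSeq start are shown. Capitals mark matches to the metal response element core TGCACNC or TGCGCNC on either strand.
Mt1, chr8:94178839-94179088, forward strand: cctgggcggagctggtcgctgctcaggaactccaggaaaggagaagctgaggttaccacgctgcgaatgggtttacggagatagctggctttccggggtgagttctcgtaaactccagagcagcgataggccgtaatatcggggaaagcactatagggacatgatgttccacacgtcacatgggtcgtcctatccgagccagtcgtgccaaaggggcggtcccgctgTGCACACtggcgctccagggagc
Mt2, chr8:94172368-94172617, forward strand: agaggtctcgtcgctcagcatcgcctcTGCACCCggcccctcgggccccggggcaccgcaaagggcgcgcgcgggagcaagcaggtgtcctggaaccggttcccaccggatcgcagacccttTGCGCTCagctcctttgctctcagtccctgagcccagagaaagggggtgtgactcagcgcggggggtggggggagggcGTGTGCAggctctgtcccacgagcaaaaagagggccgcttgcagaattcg
The Mt1 window held 1 match and the Mt2 window 3. Bases after each RefSeq start were not searched, so these counts depend on the start used and do not cover the whole promoters. At least 1 match was found in 21.4% of 32851 RefSeq start windows of this length and at least 3 in 1.26%. A match describes these letters alone, and binding was not measured.

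The genes lower in members included regulators of transcription, of BMPs and of the cell cycle. Tcf21, a transcription factor of lung FBs and LipoFBs, stood at 225 CPM (193 to 260.4) in single-dose members and 688 CPM (664.5 to 712) in the others, and at 189 CPM (180.2 to 198) and 513.5 CPM (507 to 520.2) in the repetitive library. A UMI of Tcf21 was found in 72.45% and 78.8% of members, against 4.76% of 21 and 5.525% of 181 immune barcodes of lower depth. Bmper, a secreted BMP modulator, stood at 7.66 CPM (2.81 to 16.7) against 41.95 CPM, on 6 UMIs in members, and at 26.4 CPM (23.3 to 29.8) against 137 CPM, log2 ratios of -2.31 and -2.33. Tppp3, a tubulin-binding protein, had -2.02 and -2.47, and Tagln, the actin-binding protein transgelin, -2.57 and -1.90. Cdkn2c, encoding the cell cycle inhibitor p18, had -2.01 and -1.63, opposite in direction to Cdkn1c. Gucy1a1 and Gucy1b1, the subunits of the nitric oxide receptor guanylyl cyclase, had -1.41 and -1.56, and -1.55 and -1.82. Wnt4 had -1.31 and -1.24, Mapt, the microtubule protein tau, -1.74 and -1.38, and Tmem100 -1.47 and -1.29. Ccdc42 had -1.96 and -2.19, Cpm, carboxypeptidase M, -1.80 and -2.31, Chst2, a sulfotransferase, -1.83 and -1.72, Lxn, a carboxypeptidase inhibitor, -1.54 and -1.22, and Prr5l -1.23 and -1.20. Without the LipoFB-gene barcodes in the comparison the repetitive ratios were 0.02 for Cdkn2c, 0.22 for Gucy1a1, 0.01 for Gucy1b1, 0.50 for Mapt, 0.03 for Lxn and 0.74 for Prr5l. In the single-dose library the ratios of these 6 genes were then -0.36, -1.31, -0.86, -0.57, -1.06 and 0.48. The other called genes, from -1.77 to -1.02, were Adrb3, Ccn2, Epas1, Faim2, Fam13a, Mgll, Otud1, Pdzd2, Rtn1 and Txnip, beside Mettl7a1 and Vegfa.

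The called genes were then read against each part of the comparison group. LipoFB-gene barcodes made up most of the group against which the genes had been called. The counts against LipoFB-gene barcodes were thus largely fixed by the calling, for higher and lower genes alike. Of the 35 genes called higher, 33 were also at least 2-fold higher than in the LipoFB-gene barcodes with enough marker UMIs in both libraries (1.75% of all genes compared), and 35 than in those without (1.47%). Against the matrix-gene barcodes 2 were (3.26% of all genes), and the 35 genes had medians of 0.07 and 0.00 there. In 15 of the 35 the members had the highest level of the 5 sets in both libraries, against 5.3% of all genes, and the 35 had been picked for being high in members. The 15 included C2, Clec11a, Col12a1, Cpxm1, Ctsc, Fxyd6, Ildr2, Lpl, Man2a1, Mt1, Mt2, Ndnf, Nr4a2 and Scd1. The next set was often close, as for Ildr2, at 27.6 CPM in single-dose matrix-gene barcodes against 29.35 CPM in members. In 12 of the 35 the matrix-gene barcodes stood above the members in both libraries, near the share among all genes (32%). Against the remaining barcodes 10 of the 35 were 2-fold higher in both libraries (0.584% of all genes), and all 35 had a positive ratio, against 28.3% of all genes. Of the 27 genes called lower, 23 and 27 were 2-fold lower than in the LipoFB-gene barcodes with and without enough marker UMIs (0.604% and 0.746% of all genes), 3 than in matrix-gene barcodes (1.63%) and 4 than in the remaining barcodes (0.0806%). Against matrix-gene barcodes 6 of the 27 were at least 2-fold higher in members in both libraries (3.26% of all genes). There 13 of the 27 had a positive and 9 a negative ratio in both libraries (34.7% and 32% of all genes), with medians of 0.17 and 0.48.

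**Figure D2:**
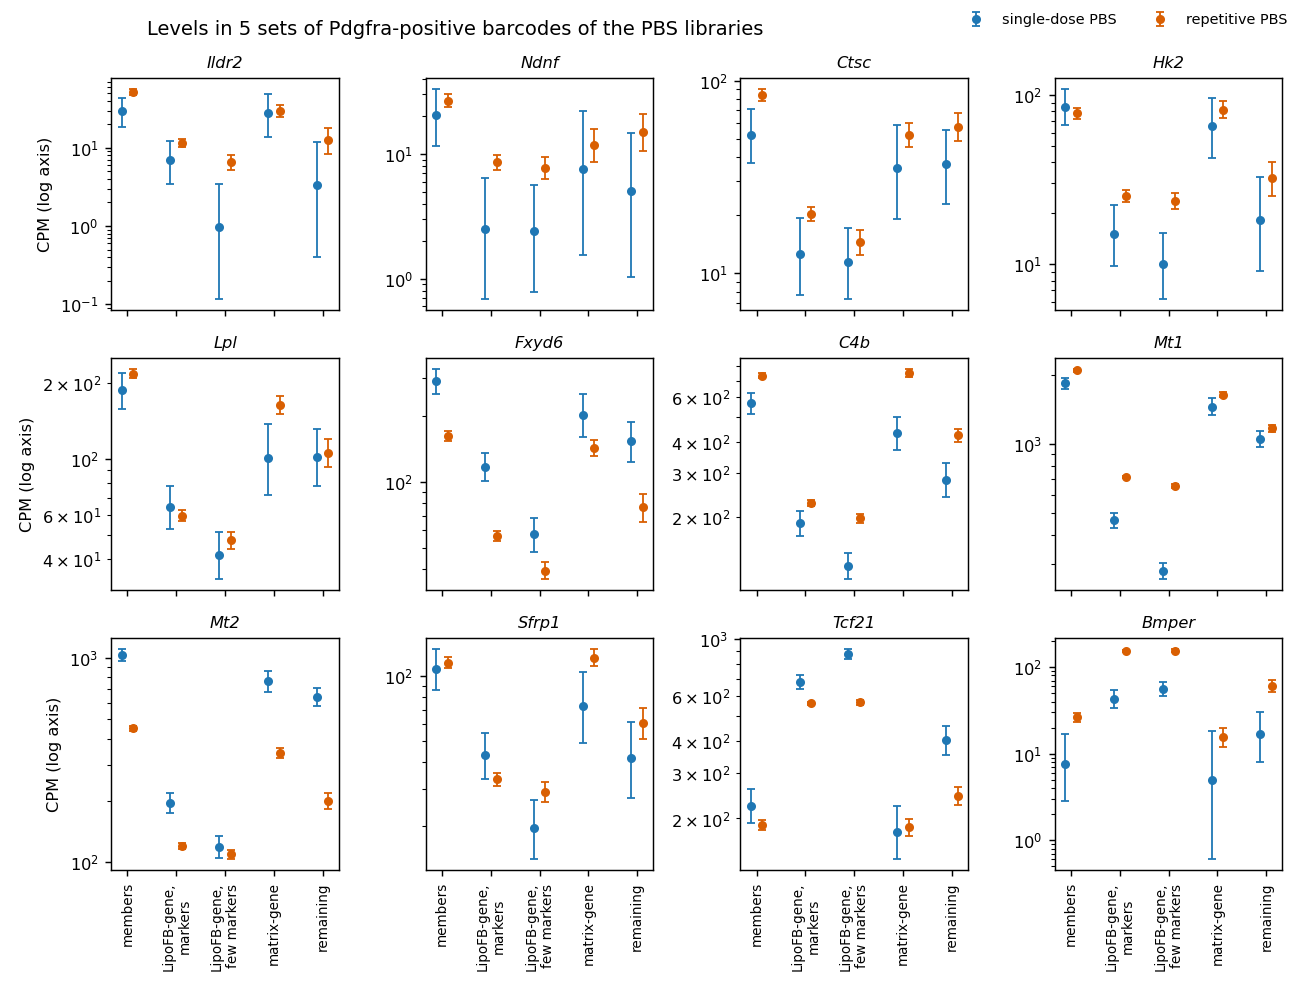
Level in CPM on a log axis (each panel has its own range) of 12 genes in members and in 4 sets of the other Pdgfra-positive barcodes, blue for single-dose PBS and orange for repetitive PBS, with exact 95% Poisson intervals. Ildr2, Fxyd6, Lpl, Ctsc, Ndnf, Mt1 and Mt2 were highest in members in both libraries. Hk2 and C4b in matrix-gene barcodes of the repetitive library reached or passed the members, and Tcf21 and Bmper were highest in LipoFB-gene barcodes.

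A comparison with the other barcodes that also had few LipoFB-gene UMIs (147 and 688, with median depths of 6783 and 8638.5 UMIs) leaves out the gap that the LipoFB limit made. There 5061 genes were compared, with 7 (0.138%) at least 2-fold higher in members in both libraries and 55 (1.09%) lower. These genes lie outside the naming rule except for Ildr2, Tppp3, Tagln and Meg3, and were chosen after their values were seen. The 7 were Rgs2, Col12a1, Nrcam, Prom1, Syn2, Ildr2 and Gja5. Rgs2, a regulator of G protein signalling, stood at 348 CPM in single-dose members against 131 CPM, and at 234 against 84.8 CPM in the repetitive library. Nrcam, a neuronal cell adhesion protein, stood at 61.3 CPM in single-dose members against 21.03 CPM, and at 144.5 against 58.2 CPM in the repetitive library. Syn2, a synaptic vesicle protein, stood at 54.9 CPM in single-dose members against 22.03 CPM, and at 107 against 43.5 CPM in the repetitive library. These 3 genes had intervals of the ratio above 0 in both libraries. Gja5, connexin 40 of gap junctions, had log2 ratios of 1.14 (0.39 to 2.00) and 1.03 (0.81 to 1.31). Ildr2 kept 1.11 (0.13 to 2.28) and 1.14 (0.90 to 1.45), and Col12a1 had 2.21 and 1.31.

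Of the 55 genes lower in members on this comparison, 9 were on the adventitial MatrixFB list, namely Ccl11, Cd248, Ebf1, Ly6a, Ly6c1, Meg3, Pi16, Scara5 and Serpinf1, and of these Ly6a and Serpinf1 defined the matrix-gene barcodes. Matrix-gene barcodes made up 55 of the 147 and 388 of the 688 barcodes of this comparison group. Members with at least 3 UMIs of the same defining genes were 27 of 98 and 270 of 772. Against matrix-gene barcodes alone 81 of 4963 genes (1.63%) were at least 2-fold lower in members in both libraries, and against the remaining barcodes 4 (0.0806%). The part of this make-up in the 55 lower genes was not tested. Pi16 stood at 116 CPM in single-dose members against 496 CPM, and at 80.7 against 421 CPM in the repetitive library. Ccl11, the eosinophil chemokine eotaxin, had log2 ratios of -2.11 and -2.48, Penk, proenkephalin, -2.11 and -2.91, and Cd248, endosialin, -2.49 and -2.67. Serpinf1 had -1.62 and -2.25. Cxcl13, a B cell chemokine, stood at 1.28 CPM in single-dose members against 51.1 CPM, and at 0.413 against 86.6 CPM in the repetitive library, on very few UMIs in members. Of the genes called against all others, Col12a1 and Ildr2 on the higher side and Tppp3 and Tagln on the lower side were called here too.

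Members were themselves mixed for the matrix genes. At least 3 UMIs of Col14a1, Ly6a and Serpinf1 were present in 27 of 98 single-dose members and 270 of 772 repetitive members. Between members with and without them, 79 of 5075 genes (1.56%) stood at least 2-fold higher in both libraries and 8 (0.158%) lower. The genes named here were chosen after their values were seen. In members without matrix genes Pi16 stood at 21.65 and 2.395 CPM against 344.5 and 199.5 CPM in those with them. Ebf1, a transcription factor, stood at 0 (the limit of 3 counts is 5.41 CPM) and 4.62 CPM against 95.9 and 113 CPM. Slc22a3, an organic cation transporter, Car2, carbonic anhydrase 2, Gja5 and Trf, transferrin, were among the genes higher in members without matrix genes, Car2 at 146 and 105 CPM against 52.3 and 46.2 CPM. The intervals of Cdkn1c overlapped between them, as it stood at 148 CPM (103 to 207) and 121 CPM (93.7 to 153.5) in single-dose members with and without matrix genes, and at 110.1 CPM (99.9 to 121) and 113 CPM (105 to 122) in repetitive members. With the matrix-gene members left out, 18 of the 35 higher genes and 15 of the 27 lower genes were still at least 2-fold different, and all 62 kept their sign in both libraries.

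Gene lists were read by their counts and their medians, beside medians of -0.03 and -0.03 over all 4963 genes, of which 27.1% had a positive and 39.9% a negative ratio in both libraries. List genes other than the extremes and those past 2-fold in both libraries were chosen after their values were seen. Some genes on the lists are ones that the study named or used as markers on these libraries, so their direction is not independent evidence. Of 21 LipoFB genes compared, none of them in the rule, 19 had a negative ratio in both libraries, with medians of -0.51 and -0.44. Against the other barcodes with few LipoFB-gene UMIs these medians turned to 0.13 and 0.53. On that comparison the medians of the adventitial matrix genes turned to -0.93 and -1.28, of the insulin-like growth factor axis to -0.26 and -0.52 and of the potassium channels to -0.01 and -0.06. Matrix-gene barcodes were 55 of the 147 and 388 of the 688 barcodes of that comparison group. In the repetitive library alone, complement and acute phase genes turned to -0.15, interstitial collagens to -0.16, basement membrane genes to -0.09, axon guidance genes to 0.46, contractile genes to -0.50, stress genes to -0.02, cell cycle inhibitors to -0.01 and imprinted genes to -0.03. In the single-dose library alone, niche factors turned to -0.03 and mesenchymal transcription factors to 0.07. The counts and medians of lists that follow are against all others. Among the LipoFB genes only Tcf21 and Mettl7a1, a lipid droplet-associated methyltransferase-like protein, passed 2-fold on the lower side, with Mettl7a1 at 549 against 1184 CPM and 420.5 against 874 CPM. Without the LipoFB-gene barcodes in the comparison the repetitive ratio of Mettl7a1 was 0.32. Plin2, a lipid droplet coat protein, stood at 102 against 141 CPM and 169.5 against 283 CPM. The exceptions were Lpl, 2-fold higher in members, and Plin3, at 0.03 and -0.06. Per barcode the LipoFB list made up a median of 1.58% of UMIs in single-dose members and 2.51% in the others, and 1.51% and 2.13% in the repetitive library.

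Complement and acute phase genes were higher in members in 8 of 9 cases in both libraries, against 27.1% of all genes, with medians of 0.21 and 0.48, and C4b alone of the list passed 2-fold. C2 and Lbp, which passed 2-fold too, were not on the list. C3 stood at 775 against 497 CPM and 1588 against 963 CPM, and Cp, ceruloplasmin, was lowest by the mean ratio of both libraries at 0.03 and 0.16. The exception, Cfb, stood at 19.1 against 21.6 CPM and 76.2 against 52.45 CPM. Interstitial collagen and elastic fibre genes were higher in both libraries in 18 of 26 cases, with medians of 0.36 and 0.19, none at 2-fold in both. Mfap2, a microfibril protein, had the highest mean ratio at 1.01 and 0.71, Col3a1 stood at 2426 against 1218 CPM and 1736 against 1106 CPM, and Fn1, fibronectin, was lowest at 338 against 526 CPM and 361 against 883 CPM.

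Of 11 retinoid genes compared other than Lrat, 7 were higher in both libraries and 1 was lower, with medians of 0.33 and 0.08 and no gene at 2-fold in both. Dhrs3, which reduces retinal to retinol, had the highest mean ratio of both libraries, at 135 against 82.2 CPM and 86.4 against 56.96 CPM. Aldh1a1, which makes retinoic acid, stood at 1354 against 1363 CPM and 1505 against 1495 CPM. Rarres2, chemerin, had -0.20 and -0.24. Adh7, an alcohol dehydrogenase that oxidises retinol, had ratios of opposite sign, at 63.8 against 25.5 CPM and 20.5 against 27.96 CPM.

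Of 4 potassium channel genes compared besides Kcnk2, 3 were higher in both libraries. Abcc9 and Kcnj8, subunits of one ATP-sensitive channel, had log2 ratios of 1.18 and 0.93, and 0.72 and 0.59. Kcna2 had 0.04 and -0.05. Among 18 BMP genes Gdf10 was higher and Bmper lower at 2-fold, with medians of 0.12 and 0.03. Bambi, a BMP pseudoreceptor, had 0.89 and 0.92. Id1, a BMP target, had -0.19 and -0.46, and the related Id3 on the same list had 0.25 and 0.16. Of 8 cell cycle inhibitors 4 were higher and 2 lower, Gas1 at the top with 0.97 and 0.69 and Cdkn2c 2-fold lower. Of 7 imprinted genes 3 were higher and 2 lower, against 27.1% and 39.9% of all genes, with medians of 0.08 and 0.01, from Igf2r at 0.92 and 0.39 to Meg3 at 0.08 and -0.64.

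Immediate early and stress genes had medians of 0.41 and 0.19, with 13 of 24 higher and 5 lower in both libraries. Nr4a2, an orphan nuclear receptor, alone passed 2-fold, at 114 against 33.6 CPM and 492 against 232.5 CPM, and Klf6 was lowest at -0.25 and -0.30. Fos stood at 2852 against 2510 CPM and 2535 against 2645 CPM. The contractile and ductal myofibroblast list had medians of opposite sign, -0.24 and 0.38, among 8 genes, of which Tagln was lower at 2-fold and Myl9 had 0.37 and 0.56. In the 19 niche factor and Wnt genes Sfrp1 was higher and Vegfa, an endothelial growth factor, lower at 2-fold, with Vegfa at 15.3 against 34.03 CPM and 28.98 against 92.9 CPM. Of 6 listed genes of the insulin-like growth factor axis 4 were higher and none lower, with Igfbp4 at 1.04 and 0.87 and Igf1r lowest at 0.17 and -0.21. Igfbp3, a binding protein of this axis that the rule kept low in members, was not on the list.

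The 17 adventitial matrix genes had medians of 0.13 and 0.27, from Igfbp4 down to Dpep1, a membrane dipeptidase, at -0.49 and -0.35. Of these 9 were higher and 4 lower in both libraries. Per barcode this list made up a median of 0.408% of UMIs in single-dose members and 0.219% in the others. In the repetitive library the medians were 0.334% and 0.181%. Dcn, a MatrixFB marker of the study, was found in 85.7% of members and 45.0% of the others after a single dose, and in 82.1% and 44.6% after repetitive dosing. The 12 basement membrane genes had 0.18 and 0.16, from Col4a5 at 1.33 and 0.63 to Col18a1 at -0.70 and -0.69. Among 10 axon guidance genes, with medians of 0.00 and -0.20, Epha3 had 1.77 and 0.86 and Nrp1 -0.78 and -0.58. Of 19 mesenchymal transcription factors 6 were higher and 11 lower, with Tcf21 lowest. No gene of these 4 lists other than Tcf21 passed 2-fold in both libraries.

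**Figure D3:**
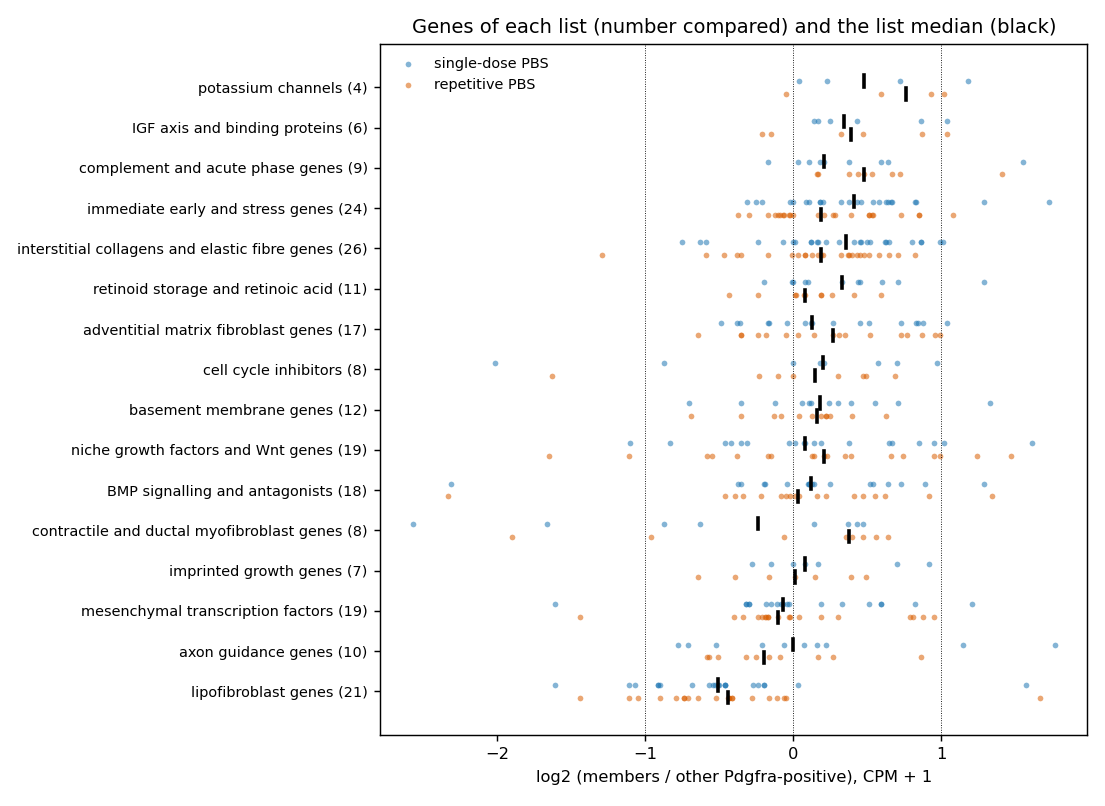
Log2 ratio of members over the other Pdgfra-positive barcodes for each gene of 16 lists, blue for single-dose PBS and orange for repetitive PBS, with the number of genes compared in brackets, the list median as a black bar and dotted lines at 0 and 2-fold. The LipoFB list lies to the left, with medians of -0.51 and -0.44 and Lpl alone beyond 2-fold on the right.

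**Figure D4:**
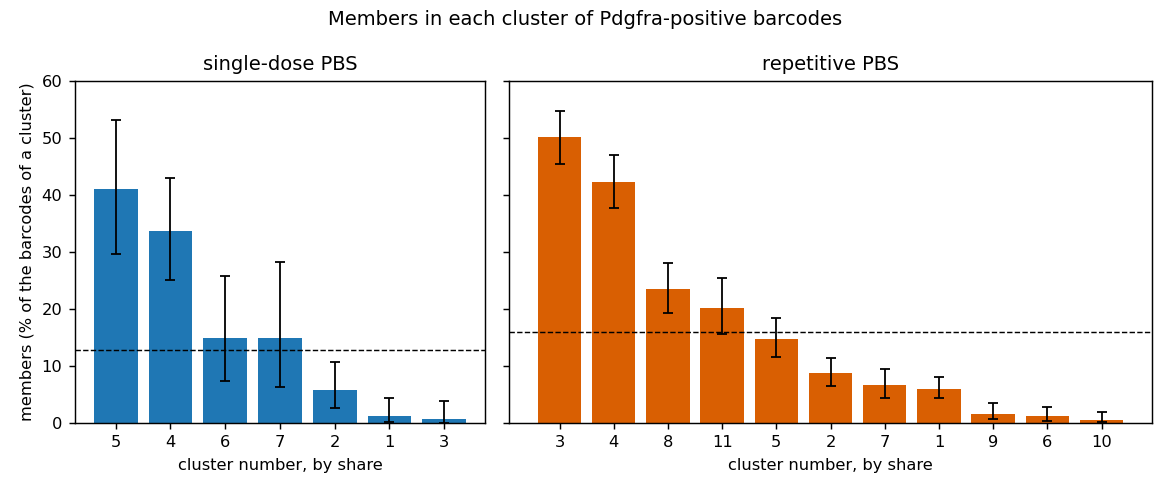
Share of members in each Leiden cluster of the Pdgfra-positive barcodes, clusters in order of share, with exact 95% binomial intervals and a dashed line at the share in the whole library. The leading pair held 41.1% and 33.6% members in single-dose PBS, and 50.1% and 42.3% in repetitive PBS.

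At resolution 1 members were found in every cluster of the Pdgfra-positive barcodes, at unequal shares. With the rule genes, Cdkn1c and mitochondrial genes left out, Leiden clustering gave 7 clusters in the single-dose library and 11 in the repetitive library. The highest share of members was 41.1% (29.7 to 53.2), 30 of 73 barcodes, in single-dose cluster 5 and 50.1% (45.5 to 54.7), 236 of 471 barcodes, in repetitive cluster 3. The lowest shares were 0.699% and 0.539%. Genes that go with the LipoFB genes of the rule, such as Tcf21, stayed in the clustering, and the share of barcodes within the LipoFB limit ranged from 2.47% to 85.1% between single-dose clusters and from 2.695% to 80.95% between repetitive clusters. Of the barcodes within that limit, members were 65.2% (49.75 to 78.65) in single-dose cluster 5 and 54.9% (42.7 to 66.8) in cluster 4, against 40% in the library. They were 79.7% (74.7 to 84.2) in repetitive cluster 3 and 70.25% (64.5 to 75.55) in cluster 4, against 52.9% in the library, and 71.3% (62.7 to 78.9) in cluster 8. The leading pair of clusters held 70.4% of single-dose members and 56.0% of repetitive members. In both libraries this pair differed in Fos, at 4135 and 1153 CPM in single-dose clusters 4 and 5 and at 3834 and 1035 CPM in repetitive clusters 3 and 4. Kcnk2 was highest in the same pairs, at 125 and 92.2 CPM and at 110.5 and 110 CPM. Lrat there stood at 297.9 and 388 CPM in the single-dose and 365 and 324 CPM in the repetitive library. These genes were left out of the clustering but chose the members. The clusters richest in Col14a1 (269 and 617.5 CPM) held 14.9% and 14.7% members and had Lrat at 19.5 and 17.2 CPM. Of their barcodes within the LipoFB limit, members were 17.5% (8.75 to 29.9) and 18.2% (14.3 to 22.6), against 40% and 52.9% in the libraries. Single-dose cluster 4 was led by immune genes such as Cd74 and C1qa. At resolution 2 these genes led a cluster of 11 barcodes, of which 2 were members.

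The rule was also applied to the other libraries. Among Pdgfra-positive barcodes, 9.32% (7.22 to 11.8; 62 of 665) met it after single-dose bleomycin, against 12.8% (10.5 to 15.4) after PBS, and 13.8% (12.8 to 14.9; 568 of 4103) after repetitive bleomycin, against 15.9% (14.9 to 16.97). The order of the repetitive libraries turned with the limits, to 17.7% after bleomycin against 16.6% after PBS with at least 5000 UMIs per barcode, and to 20.8% against 19.3% with at least 2 marker UMIs. Depth differed between these libraries, with medians of 11799 and 9413 UMIs in the Pdgfra-positive barcodes outside the rule after single-dose and repetitive bleomycin. Thinned to 2000 UMIs per barcode the shares were 0.451% (0.0931 to 1.31) against 5.10% (3.65 to 6.90), and 1.90% (1.51 to 2.37) against 5.75% (5.11 to 6.44). The thinned rule kept 28 of the 98 and 161 of the 772 PBS members. It also passed 11 and 118 PBS barcodes that were not members, since they had 2 or more LipoFB-gene UMIs before thinning. After bleomycin it passed 3 and 53 barcodes that had met the full rule, and 0 and 25 that had not. Those that met the rule both before and after thinning were 3.66% and 3.32% of Pdgfra-positive barcodes after PBS and 0.451% and 1.29% after bleomycin. The LipoFB limit itself passed 77.1% and 77.85% of Pdgfra-positive barcodes after bleomycin, and 32.0% and 30.1% after PBS. Among barcodes within that limit, 12.1% and 17.8% met the marker limit after bleomycin, and 40% and 52.9% after PBS. In organoids 13.4% of Pdgfra-positive barcodes with normal FBs and 5.02% with fibrogenic FBs met the rule. After thinning these shares were 0.0663% and 0% (0 of 1754), and neither organoid value was set against the lung libraries.

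**Figure D5:**
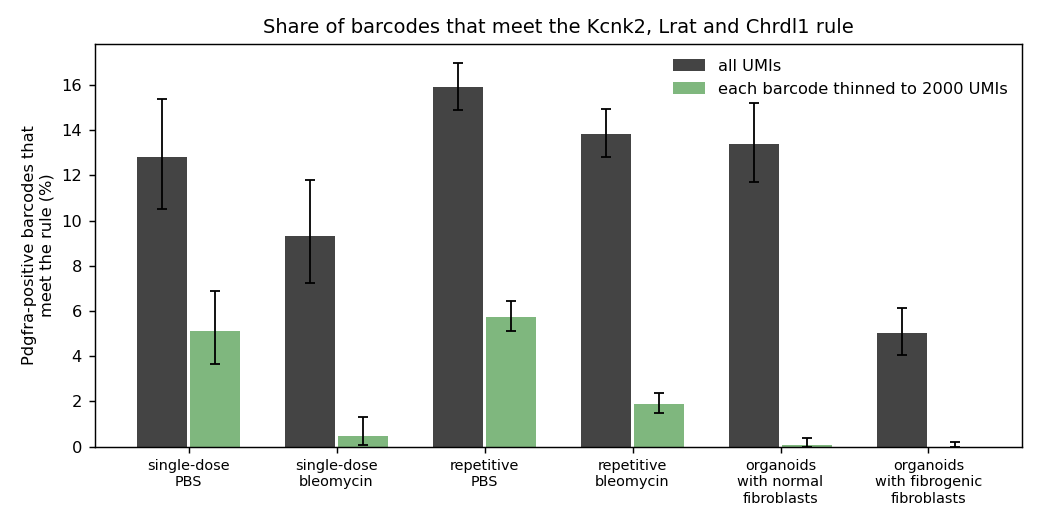
Share of Pdgfra-positive barcodes that met the rule in each of the 6 libraries, with all UMIs (dark bars) and after thinning every barcode to 2000 UMIs (green bars), and exact 95% binomial intervals. In the 4 lung libraries the dark bars lie between 9.32% and 15.9%, and the green bars at 5.10% and 5.75% after PBS and at 0.451% and 1.90% after bleomycin.

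Few of the genes called in PBS members passed 2-fold in barcodes that met the rule after bleomycin. The comparison groups were unlike in make-up. Barcodes with few LipoFB-gene UMIs were 451 of 603 and 2626 of 3535 of the others after bleomycin. After PBS they were 147 of 667 and 688 of 4080. In PBS, against such barcodes alone, 2 of the 35 higher and 2 of the 27 lower genes stayed past 2-fold. How far the make-up set the counts after bleomycin was not tested. Of the 35 genes higher in PBS members, 4 were at least 2-fold higher after single-dose bleomycin (0.443% of all genes compared) and 0 after repetitive bleomycin (0), although 29 and 28 had a positive ratio, against 46.6% and 43.9% of all genes. Of the 27 lower genes, 2 and 2 were at least 2-fold lower (0.786% and 0.201% of all genes), and 15 and 23 had a negative ratio, against 53.4% and 56.1% of all genes. Lpl stood at 442.5 CPM in rule-meeting barcodes and 551 CPM in the others after single-dose bleomycin, and at 623.5 against 555 CPM after repetitive bleomycin. Both groups there stood above PBS members in Lpl, which had 186 and 217 CPM. Tcf21 stood at 239 against 209 CPM and 185 against 192 CPM. Fxyd6 had the highest ratio of the named genes outside the rule after single-dose bleomycin, 1.22, with 0.61 after repetitive bleomycin, and Tagln had -1.91 and -1.12.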

How the data were processed

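The authors deposited a count table per library, with UMI counts per gene and cell barcode, made with Cell Ranger 3.0.1 on mm10 and analysed further with Seurat 3 per the submitters' processing notes. The study's methods name GRCm38 with a GENCODE annotation for the single-dose libraries, and the deposited counts carry no cell annotation. Of the gene rows, 303 symbols were joined between tables by RefSeq synonyms, and 20793 genes were in both PBS tables.

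UMIs were summed over members and over other barcodes of a library and divided by their total, giving CPM. Ratios used a pseudocount of 1 CPM, and genes were compared when the higher group reached 20 CPM in both PBS libraries. With 1 library per condition no test was made. Exact Poisson and Clopper-Pearson intervals at 95% cover counting error only. PBS depth was 7201081 UMIs in 1060 barcodes and 64697147 in 6139. No doublet caller was run, and doublets were kept.

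Pdgfra-positive barcodes were clustered per library with scanpy 1.11.5 and igraph 0.11.9 (2000 variable genes, 30 principal components, 20 neighbours, resolution 1), leaving out the rule genes, Cdkn1c and mitochondrial genes. Python 3.11.15, numpy 2.4.6, scipy 1.17.1, pandas 2.3.3, scikit-learn 1.9.0 and matplotlib 3.10.9 were used. The scripts were tested on simulated data. Promoters came from RefSeq on GRCm38.p6.

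Named genes were the rule genes, Cdkn1c, the 15 highest and 15 lowest called genes by the smaller ratio of both libraries, the extremes of each of 23 lists and the list genes past 2-fold in both. Other genes given with values, such as C3, Plin2, Col3a1, Aldh1a1, Adh7, Bambi, Id1, Fos, Kcnj8 and Plin3, were chosen after their values were seen. A few genes are not reported here. Members and lists were chosen with earlier results of these data known, and some list genes are ones the study named or used as markers on these libraries. Alternatives changed the limits of the rule, the depth, the comparison group, the filter, the pseudocount, the centring and the resolution.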

Additional observations from a re-analysis of the deposited data

Results flagged for a closer look

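Mettl7a1, a lipid droplet-associated protein on the LipoFB list, had ratios of opposite sign in PBS and bleomycin libraries. The log2 ratio of members over other Pdgfra-positive barcodes was -1.11 after single-dose PBS and -1.05 after repetitive PBS. Among barcodes that met the same rule it was 0.41 after single-dose bleomycin and 0.09 after repetitive bleomycin. Mettl7a1 stood at 549 CPM in members against 1184 CPM in the others and at 420.5 against 874 CPM in the PBS libraries, and at 248 against 187 CPM and 306 against 287 CPM after bleomycin. Without LipoFB-gene barcodes in the comparison the PBS ratios were -0.18 after a single dose and 0.32 after repetitive dosing. On the same comparison, chosen after seeing the data, the bleomycin ratios were 0.81 and 0.51, so the repetitive libraries then had ratios of the same sign. The comparison groups also differed in make-up, as the LipoFB limit passed 32.0% and 30.1% of Pdgfra-positive barcodes after PBS and 77.1% and 77.85% after bleomycin. The difference between conditions was not tested, since each had 1 library.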

How the results depend on the processing

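No paired analysis was possible because each condition had 1 library and the labels give no replicate numbers. The share of Pdgfra-positive barcodes that met the rule, in single-dose PBS, repetitive PBS, single-dose bleomycin and repetitive bleomycin in turn, was 17.65%, 19.33%, 16.39% and 20.81% with at least 2 marker UMIs, 7.32%, 10.9%, 4.211% and 7.068% with at least 5, and 38.82%, 57.36%, 14.14% and 21.5% with no limit on LipoFB genes. Thinned to 2000 UMIs it was 5.098%, 5.75%, 0.4511% and 1.901%. Among barcodes with fewer than 2 LipoFB-gene UMIs, an alternative chosen after seeing the data, it was 40%, 52.88%, 12.09% and 17.78%. With at least 5000 UMIs per barcode repetitive bleomycin gave 17.72% and repetitive PBS 16.56%, so that bleomycin stood above PBS there and with at least 2 marker UMIs.

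The 35 genes higher in members became 7 without LipoFB-gene barcodes among the others, 105 without matrix-gene barcodes, 59 at a minimum of 5 CPM, 21 at 50 CPM, 74 with no filter and 19 without matrix-gene members, the last chosen after seeing the data. The 27 lower genes became 55, 45, 57, 14 and 82 under the first 5 of these. The filters changed the number of genes compared, to 9055, 2319 and 20782. The Cdkn1c ratio was 1.05 in single-dose PBS and 0.64 in repetitive PBS when thinned to 2000 UMIs after the rule, also chosen after seeing the data, and in repetitive PBS it was -0.03 without LipoFB-gene and 0.64 without matrix-gene barcodes among the others. The highest share of members in 1 cluster was 54.72% in single-dose PBS at resolution 2, and 42.96% and 60.7% in repetitive PBS at resolutions 0.5 and 2. At resolution 2 some single-dose clusters held no member, among them one of 90 barcodes (0 to 4.016%).

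Without LipoFB-gene barcodes among the others the sign reversed in repetitive PBS for Gabra3 (-0.35), Ace (-0.47), Cdkn2c (0.02), Gucy1b1 (0.01), Gucy1a1 (0.22), Mapt (0.50), Lxn (0.03), Mettl7a1 (0.32), Prr5l (0.74) and Gdf10 (-0.08), and in single-dose PBS for Prr5l (0.48) and Gdf10 (-0.05). Of 32 list medians, 20 moved by more than the counting error of a typical gene without LipoFB-gene barcodes among the others, 18 without matrix-gene barcodes and 12 with at least 5 marker UMIs, and the LipoFB medians turned to 0.13 and 0.53 under the first. That alternative leaves out the barcodes that the LipoFB limit of the rule had set apart, and the cause was otherwise not tested. Depth limits genes read on few UMIs in the 98 single-dose members, such as Ndnf and Bmper.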
